A study of Mus musculus with 2 samples.

Results

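Small leucine-rich proteoglycans are secreted matrix proteins whose core is a run of leucine-rich repeats. They lie on the surface of collagen fibrils, where they set how fibrils form, how thick they grow and how they pack, and several of them also hold growth factors in the matrix. In the ureter they belong to the connective tissue around the epithelium, that is the lamina propria, the smooth muscle coat and the adventitia. The 10 genes described here were Fmod, Lum, Dcn, Bgn, Ogn, Aspn, Omd, Prelp, Kera and Epyc, out of 30011 genes on the array. Members were chosen by gene name in the array files, and the set was built around Fmod, which was selected on the ratios of these same arrays. Each member had exactly 1 probe among 39429 probes, printed in 4 spots per array.

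The study asked what SHH signaling maintains in the newborn ureter. Ureters of wildtype NMRI mice at postnatal day 0 were explanted and cultured for 18 h, either with 10 µM cyclopamine, an alkaloid that blocks the SHH transducer SMO, or with DMF diluted 1 in 1000, the control in the labels (the methods name ethanol as the solvent of cyclopamine). Ureters were pooled, and their RNA was hybridised to 2 arrays with 2 colours each. Replicate 1 compared female pools with the control in green and cyclopamine in red, and replicate 2 compared male pools with the dyes swapped. Each sex and each dye orientation had 1 array, so that sex, dye orientation and pool cannot be told apart. A source label of the treated channel names IWP-2, an inhibitor of WNT secretion, but the title, treatment and protocol labels name cyclopamine. Control signals were brighter on replicate 1 than on replicate 2, by 5.32 times at their 75th percentile, and ratios were therefore taken within an array.

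Gli1, Ptch1 and Hhip, each read by its brightest probe, fell with cyclopamine, which checks the label of the treated channel. Gli1, the transcription factor whose own expression follows SHH activity, had log2 ratios of cyclopamine over control of -1.83 on replicate 1 and -2.09 on replicate 2. Ptch1, the SHH receptor and feedback inhibitor, had log2 ratios of -1.13 and -1.49. Hhip, a decoy receptor for the ligand, had -0.31 and -1.99. The tissue label was borne out by its markers. All 6 urothelial and all 6 smooth muscle markers were well above background in all 4 channels, whereas 5 of 6 kidney markers and 4 of 5 cartilage markers, among them Acan, Comp and Matn1, were not.

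By the position of their probes (build mm9, from the array annotation, which gives no exon or UTR) the members lie in 4 places. Fmod and Prelp are on chromosome 1 next to Optc, a further member of the protein family, in the order Optc, Prelp, Fmod. Dcn, Lum, Kera and Epyc follow each other on chromosome 10, and Ecm2, Aspn, Omd and Ogn on chromosome 13. In the gene table of RefSeq there were 0 other protein-coding genes inside any of the 3 groups. Bgn is on the X chromosome. The probes are what these arrays read of each gene, and the first 30 of their 60 bases are shown 5′ to 3′ for the genes on which the results turn. Capitals mark AATAAA, the hexamer that signals cleavage and polyadenylation; read on the probe strand, it was in 2 of the 10 member probes (Aspn and Prelp) and in 12.6% of all probes.
Fmod: ggcaagcgtggttttcaaaacatgagaaag
Kera: gcagttattataacatagcatgcaaactat
Aspn: ctcaactcatAATAAAgcttcaagtattca
Dcn: aacaccttcagatgtgtctatgtgcgttct
Optc: gacaggactgataattacattttccagaat
The Fmod probe is at chr1:135943998-135944057 on the plus strand and the Optc probe at chr1:135793804-135793863 on the minus strand. The Kera probe is at chr10:97076230-97076289, the Dcn probe at chr10:96980233-96980292 and the Aspn probe at chr13:49662479-49662538, all on the plus strand.

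Fmod was the member that fell on both arrays by more than the fold limit of the study. Fmod encodes fibromodulin, a keratan sulfate proteoglycan that binds collagen I and governs fibril growth. On replicate 1 its processed intensity was 764 in the control and 409 with cyclopamine. On replicate 2 it was 118 in the control and 35.2 with cyclopamine. The cyclopamine channel was the dimmer one on both arrays, although it was labelled red on one and green on the other. This left 53.6% of the control signal in female pools and 29.9% in male pools. The log2 ratios were -0.90 ± 0.08 and -1.74 ± 0.03 (SD of 4 spots each), with a mean of -1.32 ± 0.60 (SD, n = 2 arrays). Because Fmod was chosen from these ratios, they are given as a description without a test. The SD between spots did not exceed 0.12 for any measured member and covers the printing and reading of the spots, not the spread between pools.

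**Figure D1:**
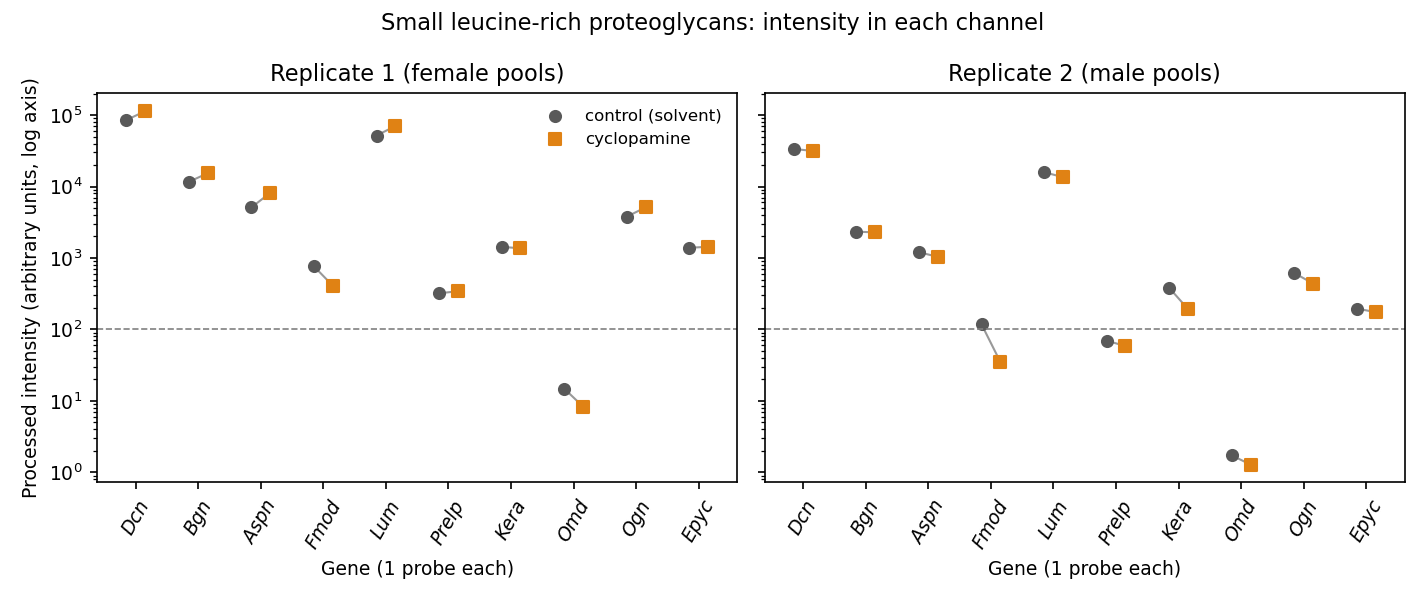
Processed intensity of the 10 members (log axis, arbitrary units) in the control channel (circles) and the cyclopamine channel (squares) of each array; a line joins the 2 channels of a probe, and the dashed line is the limit of 100 on the control intensity. Fmod drops from control to cyclopamine on both arrays, Kera drops on replicate 2, and heights of different genes are not comparable because each has its own probe.

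A fold filter was built from the limits the study states, a control intensity over 100 and a change past 1.5-fold. Here both had to hold on each array, which the study does not state. The control intensity exceeded 100 on each array for 8 members, and 1 of these, Fmod, was lower. Over all 13660 genes above the intensity limit, 0.637% were lower by this filter and 0.212% higher. No member was higher. Fmod itself lay close to the intensity limit on replicate 2, with a control intensity of 118, and Prelp was just outside it at 69.4. The next member above it, Epyc, had a control intensity of 196 there.

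In addition, limma was fitted to the log2 ratios of 25975 probes, with Benjamini-Hochberg adjustment over all of them. At an adjusted p under 0.05 it called 0.77% of the probes lower and 0.454% higher. Among the 10 members 9 were tested, and 1, Fmod, was called. Since Fmod was picked on these ratios, its own call is no test. Of the 8 other tested members, limma called 0 at the adjusted limit, and 1 of them, Kera, had an unadjusted p under 0.05, as had 9.39% of all tested probes. With 2 arrays an exact sign permutation of a single gene cannot give a p below 0.5.

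Fibromodulin belongs to the class II members, of which 4 were measured. All 4 were lower on replicate 2, as were all 9 measured members of any class and 49.9% of all measured genes. On replicate 1, 2 of the 4 (Fmod and Kera) were lower. Lum encodes lumican, a close relative of fibromodulin, which competes with it for collagen. Its intensity was 51835 in the control and 70268 with cyclopamine on replicate 1, and 15903 and 13554 on replicate 2. Thus lumican was 1.36-fold brighter with cyclopamine in female pools and 1.17-fold dimmer in male pools. Its mean log2 ratio was 0.10 ± 0.47 (SD, n = 2), with a 95% limma interval of -0.36 to 0.57 and an adjusted p of 0.921.

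Kera encodes keratocan, a keratan sulfate proteoglycan best known from the cornea. On replicate 1 it read 1435 in the control and 1365 with cyclopamine. On replicate 2 it read 382 and 193. The female pools therefore differed by 1.05-fold and the male pools by 1.98-fold, both in the direction of less signal with cyclopamine. The mean log2 ratio of Kera was -0.53 ± 0.65 (SD, n = 2), with a limma interval of -1.0 to -0.06, an unadjusted p of 0.0280 and an adjusted p of 0.428. On replicate 1 its sign depended on the processing, since the log2 ratio there was -0.07 in the main processing and 0.15 once a trend of the ratios with gene length was removed.

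Prelp encodes a protein that anchors basement membranes to the collagen beneath, and it is the gene between Optc and Fmod. Its intensities were 320 and 343 on replicate 1 and 69.4 and 58.7 on replicate 2, which gave log2 ratios of 0.10 and -0.24. The limma interval of its mean was -0.53 to 0.38. Omd, which encodes osteomodulin of mineralised tissue, was not well above background. Its intensity was 14.8 and 8.33 on replicate 1 and 1.73 and 1.28 on replicate 2, and no fold is given.

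The class I members were Dcn, Bgn and Aspn, of which decorin and biglycan carry chondroitin or dermatan sulfate chains. Dcn encodes decorin, which binds collagen and sequesters TGF-beta. It read 85185 in the control and 113620 with cyclopamine on replicate 1, and 33574 and 31586 on replicate 2. Decorin was 1.33-fold brighter with cyclopamine in female pools and 1.06-fold dimmer in male pools. The mean log2 ratio was 0.16 ± 0.36 (SD, n = 2), with a limma interval of -0.29 to 0.62 and an adjusted p of 0.862. Bgn encodes biglycan, the relative of decorin that also signals through Toll-like receptors. It read 11657 and 15349 on replicate 1 and 2334 and 2286 on replicate 2, so that the signal with cyclopamine was 132% and 97.9% of control (limma interval of the mean log2 ratio -0.27 to 0.64). Aspn encodes asporin, which binds TGF-beta and competes with decorin for collagen. It read 5113 and 8161 on replicate 1 and 1205 and 1040 on replicate 2. Asporin was thus 1.60-fold brighter with cyclopamine in female pools, the highest ratio of any measured member, and 1.16-fold dimmer in male pools. The mean of its log2 ratios, 0.23 ± 0.63 (SD, n = 2), had a limma interval of -0.24 to 0.70 and an adjusted p of 0.798.

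The class III members were Ogn and Epyc. Ogn encodes osteoglycin, also called mimecan, which affects fibril thickness. It read 3793 in the control and 5105 with cyclopamine on replicate 1, and 616 and 439 on replicate 2. Osteoglycin was 1.35-fold brighter with cyclopamine in female pools and 1.40-fold dimmer in male pools, and its mean log2 ratio was -0.03 ± 0.65 (SD, n = 2; limma adjusted p 0.980). Epyc encodes epiphycan, known from growth plate cartilage. It read 1390 and 1436 on replicate 1 and 196 and 174 on replicate 2. Epiphycan had the smallest spread between arrays of all measured members, with log2 ratios of 0.05 and -0.17 and a limma interval of -0.51 to 0.39 for their mean.

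**Figure D2:**
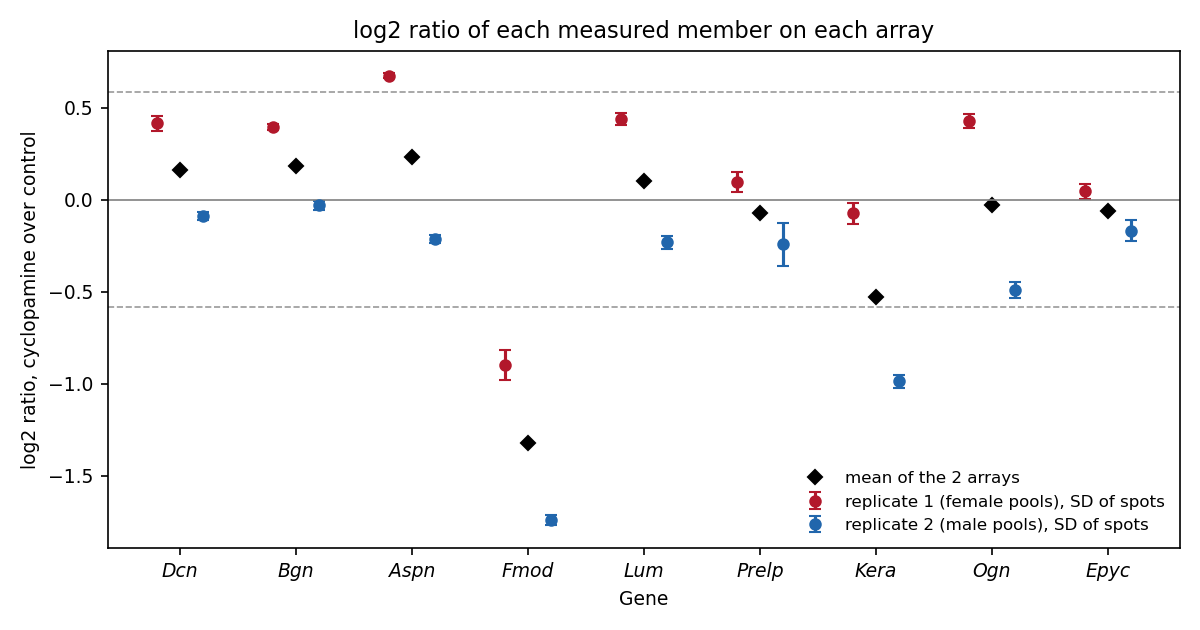
Log2 ratio of cyclopamine over control for the 9 members well above background in all 4 channels, on replicate 1 (red) and replicate 2 (blue) with the SD of the spots of each probe as bars, and the mean of both arrays (black diamonds); dashed lines are at a change of 1.5-fold. Fmod is past the lower line on both arrays, Kera on replicate 2 only, Aspn is past the upper line on replicate 1 only, and each member has its higher ratio on replicate 1.

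All 9 measured members were lower on replicate 2, where 49.9% of all 18904 genes measured in all 4 channels were lower. Without Fmod, which was picked on these ratios, 1 of the 8 others (Kera) was at least 1.5-fold lower on replicate 2, where 2.44% of all genes were. On replicate 1, 7 of the 9 were higher. Thus 7 members were higher in female pools and lower in male pools, a split that 21.1% of all genes showed. The other 2, Fmod and Kera, were lower on both arrays, as were 28.8% of genes. Within the spread of all measured genes, 1.83% had a lower ratio than Fmod on replicate 1 and 0.0688% on replicate 2. For Kera these shares were 44.1% and 0.534%, and for Aspn 94.4% and 13.2%. Dcn had 83.2% of genes below it on replicate 1 and 29.0% on replicate 2, so that the order of the members in the spread also differed between the arrays. The members had a median of 0.40 on replicate 1 against -0.23 on replicate 2, while the medians over all genes were -0.0011 and 0.00026. The median of the mean ratios was -0.03 for the members and -0.0045 for all genes. The members were read in the same pools and are not replicates of each other.

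Because the dyes were swapped, the same values can be read by colour. Averaged over both arrays, red over green was above 0 for all 9 measured members, including Fmod, and for 49.5% of all genes. On the log2 scale this average ran from 0.11 for Epyc to 0.46 for Ogn, with 0.42 for Fmod. For Fmod the mean ratio of treatment was 3.13 times the size of this colour difference, and for Kera 1.16 times. The treatment ratio is the larger exactly when a gene has the same sign on both arrays. This comparison therefore only restates that Fmod and Kera were lower on both, and Fmod was picked on these ratios. Dye and sex cannot be told apart here. Replicate 1 also showed a relation of the ratios with genomic gene length, with Spearman's rho of 0.44 across genes, which are not independent replicates, against 0.036 on replicate 2. With that trend removed, Fmod had log2 ratios of -0.75 and -1.74, Aspn 0.68 and -0.24, Lum 0.66 and -0.22, and Dcn 0.31 and -0.12. Kera then had 0.15 and -0.98 and Epyc -0.06 and -0.20, so that Epyc instead of Kera was lower on both arrays beside Fmod.

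**Figure D3:**
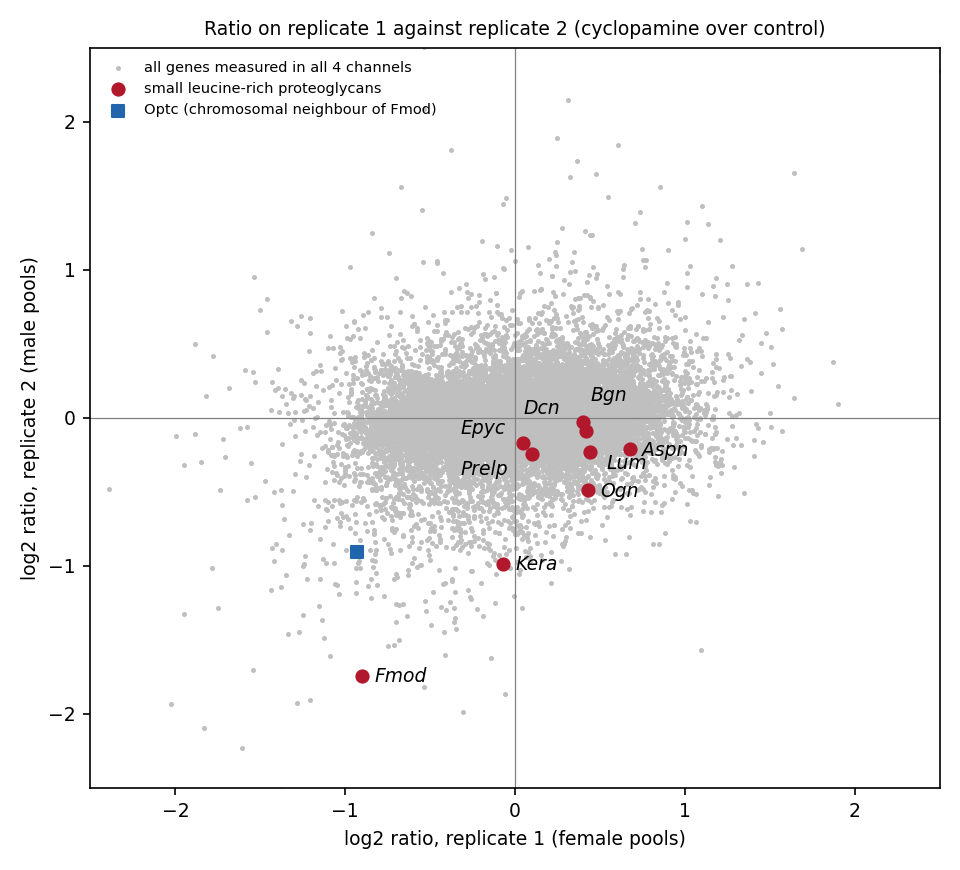
Log2 ratio on replicate 1 (x axis) against replicate 2 (y axis) for all genes well above background in all 4 channels (grey), the 9 measured members (red, named) and Optc (blue square); 10 genes lie outside the axes. Fmod and Optc lie in the lower left, where both arrays show less signal with cyclopamine, Kera lies on the line of no change of replicate 1, and Aspn, Lum, Dcn, Bgn and Ogn lie to its right and below 0 on replicate 2.

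Among 9 other leucine-rich matrix proteins on the array, 8 were measured. Limma called 1 of them, Optc, as lower, beside 0.77% of all tested probes. The list was chosen with earlier results of these data known, which limits this call as a test. Optc encodes opticin, a class III protein named for the vitreous of the eye, and its probe read 5032 in the control and 2642 with cyclopamine on replicate 1. On replicate 2 it read 504 and 269. The loss was 1.90-fold and 1.88-fold, lower on 2 of 2 arrays. Its log2 ratios averaged -0.92 ± 0.02 (SD, n = 2), and the adjusted p by limma was 0.0196. Its direction held in all 10 alternatives with a test, added after seeing the data, but the call was lost in 3 of them, with the series table values (adjusted p 0.511), with normexp at an offset of 50 (0.0558) and with the 4 channels taken singly (1.00). Optc and Fmod, which both fell, thus lie on either side of Prelp, which was not called. The other 7 measured proteins of that list were not called and passed no fold limit on both arrays, and the median of all 8 came to -0.03 in female and -0.18 in male pools. Ecm2, the neighbour of Aspn, had log2 ratios of 0.63 and -0.19, beside 0.67 and -0.21 for Aspn.

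The promoters of Fmod and Optc are shown because both genes fell with the SHH targets on both arrays. Promoter windows of RefSeq (build GRCm38.p6, 300 bases around the start of a gene) were at hand for 8 of the members. They were searched on both strands for GACCACCCA, the site that GLI factors bind. It was in none of the 9 member windows (Epyc has more than 1) and in 0.253% of 32851 windows. The 7 bases of its core, CCACCCA, searched after the full site had given no match, were in 0 member windows and in that of Optc, as in 9.3% of all windows. The 250 bases before the start are printed 5′ to 3′ on the strand of the gene, with this core in capitals.
Fmod, chr1:134037004-134037253, plus strand: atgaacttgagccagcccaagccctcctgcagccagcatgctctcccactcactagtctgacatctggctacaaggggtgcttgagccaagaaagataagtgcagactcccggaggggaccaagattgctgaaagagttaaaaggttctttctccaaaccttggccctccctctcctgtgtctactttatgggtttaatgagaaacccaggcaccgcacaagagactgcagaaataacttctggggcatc
Optc, chr1:133908000-133908249, minus strand: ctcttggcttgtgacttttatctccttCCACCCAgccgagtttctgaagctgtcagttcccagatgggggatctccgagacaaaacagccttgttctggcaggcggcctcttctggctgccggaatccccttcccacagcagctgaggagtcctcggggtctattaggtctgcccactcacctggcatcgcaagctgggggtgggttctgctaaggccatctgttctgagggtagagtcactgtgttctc
The match is a run of letters in this window and not a site shown to be bound.

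Among the genes whose pair of ratios lay nearest to that of Fmod, by Euclidean distance over the 2 arrays among 18903 genes, were Sp5, Cpa6, BC057651 and Ptch1. Their distances were 0.23, 0.25, 0.28 and 0.34 on the log2 scale. Sp5, the nearest, had -1.09 and -1.61 beside -0.90 and -1.74 for Fmod, and the paper lists it as reduced by both cyclopamine and IWP-2. Ptch1, an SHH target and the farthest of those named, had -1.13 and -1.49. Since Fmod was selected on these ratios and fell on both arrays, genes near it are by construction genes that fell. The lamina propria is the layer under the epithelium. Its 7 markers are genes that the study had picked for their fall on these arrays, so that all 7 being lower on both arrays is no independent evidence. Their summed intensity, in which bright probes weigh most, with cyclopamine was 60.3% of control on replicate 1 and 50.6% on replicate 2, beside 53.6% and 29.9% for Fmod. Fewer cells of a type and less RNA per cell cannot be told apart in these pools. The 4 fat markers were also lower on both arrays, with median log2 ratios of -0.67 and -0.83, beside -0.68 and -1.26 for the lamina propria markers. The fat sum, which Fabp4 dominates, was 80.2% and 83.1% of control. The smooth muscle markers summed to 97.3% and 63.3%. The urothelial markers summed to 106.97% and 106.80%. The 5 adventitial fibroblast markers summed to 175.4% and 97.8%, with median log2 ratios of 0.13 and 0.01. Of these 5 markers 1, Cd34, was higher on replicate 1 and lower on replicate 2. Of the 4 endothelial markers 3 showed that split, with medians of 0.65 and -0.11 and sums of 160.5% and 87.5%. The part of these cell types in the ratios of the members was not tested.

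The collagens that the members bind split between the arrays like most members. Of 13 fibrillar, beaded-filament and fibril-associated collagen genes, 11 were higher on replicate 1 and lower on replicate 2, with a list median of 0.57 and -0.44. Limma called 0 of them (2 at an unadjusted p under 0.05, as 9.04% of all genes tested), and 0 passed the fold limit on both arrays in either direction. By mean ratio the 2 that differed most were Col2a1, the collagen of cartilage, with log2 ratios of 0.46 and 1.02 (limma adjusted p 0.116), and Col11a1, which starts thin fibrils, with -0.12 and -1.25 (limma adjusted p 0.203). Summed over the list, the collagen signal with cyclopamine was 180% of control on replicate 1 and 72.9% on replicate 2. The same sums over the 9 members, which Dcn and Lum dominate, were 134% and 90.7%.

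The enzymes that build the sugar chains of these proteins were not called by limma, read by the brightest probe of each. Of 22 genes for the linker, chondroitin and dermatan sulfate, 0 were called (1 at an unadjusted p under 0.05), with a list median of 0.19 and -0.05. The 2 with the largest mean were Xylt1, which starts the chains (0.69 and 0.23; limma adjusted p 0.528), and Ust, a sulfotransferase (0.75 and 0.01). Of 11 genes for keratan sulfate and for the sulfation of tyrosines, which fibromodulin and lumican carry, 0 were called (0 at an unadjusted p under 0.05), with medians of -0.02 and -0.08. Chst2, a keratan sulfate sulfotransferase, had log2 ratios of -0.02 and -0.60 by its brightest probe and of -0.75 and -0.78 by its other probe. Chst5 had -0.31 and -0.23.

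Among 11 proteases that process these proteins or the collagens they coat, limma called 1 as higher, beside 0.454% of all tested probes. This list, too, was chosen with earlier results of these data known. Mmp13, a collagenase that also cleaves fibromodulin, rose from 392 to 1044 on replicate 1 and from 114 to 186 on replicate 2, or by 1.06 ± 0.50 on the log2 scale (mean and SD, n = 2; limma adjusted p 0.00579). It passed the fold filter as well, but the same 3 alternatives ended its limma call (adjusted p 0.528, 0.0804 and 1.00). Of 12 other matrix proteoglycans 8 were measured and limma called 0 (0 at an unadjusted p under 0.05). Agrn, of basement membranes, had 0.99 and -0.09, and Srgn, of leukocyte granules, had -0.58 and -0.05. Of 17 growth factors, receptors and ligands that bind members of the family, 0 were called by limma (3 at an unadjusted p under 0.05, beside 9.04% of all genes tested) and 1 passed the fold filter, beside 0.637% of genes lower by it. This was Bmp4, a ligand that biglycan binds, which read 27630 and 15523 on replicate 1 and 3473 and 2026 on replicate 2. Its log2 ratios were -0.83 and -0.78, with an adjusted p of 0.0589 by limma. Its other probe had too few spots above background to be tested. The study had listed Bmp4 as reduced on these arrays, and Bmp4 is also among the lamina propria markers. Its passing the filter is thus no independent evidence.

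**Figure D4:**
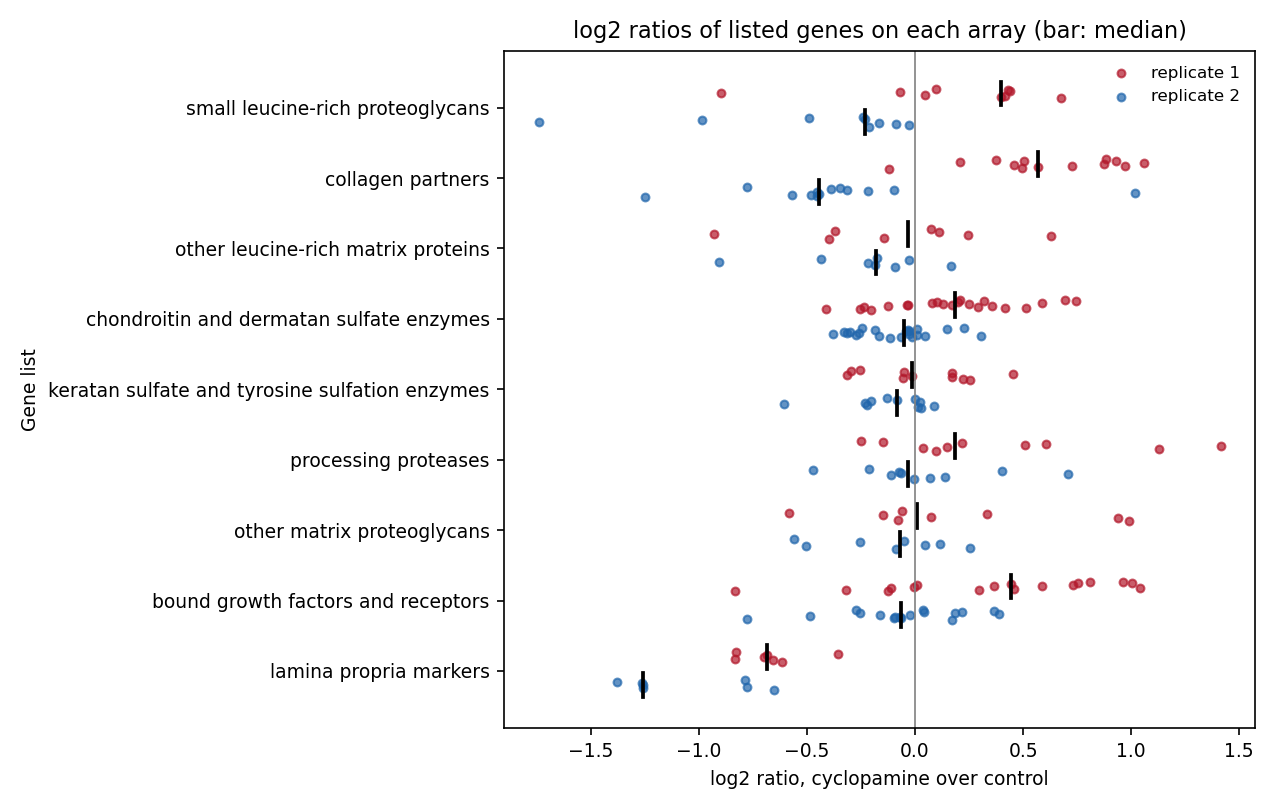
Log2 ratio of cyclopamine over control for each measured gene of the lists on replicate 1 (red) and replicate 2 (blue), with the list median on each array as a black bar. The members and the collagens have medians above 0 on replicate 1 (0.40 and 0.57) and below 0 on replicate 2 (-0.23 and -0.44), and the enzymes lie around 0. The lamina propria markers, each of which the study had listed as reduced on these arrays, are below 0.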

How the data were processed

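The deposited scanner files hold an intensity per spot and channel. Per the file headers they were made with Agilent Feature Extraction 12.2.0.7 (the processing notes of the submitters name 10.7.3.1): signals were corrected for background, detrended across the array, replaced by surrogates where dim, and balanced between dyes (linear and LOWESS). The deposited log10 ratio, red over green, is not turned for the dye swap and enters no value here. The authors' series table gives a score per probe, a signed linear fold change, which served as an alternative. The flags for outlier spots and for spots well above background are deposited software output.

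Control and outlier spots were left out, spots were averaged as log2 values, and ratios were turned to cyclopamine over control. Means over all 4 channels chose the brightest probe of a gene. A probe is called measured, or well above background, when at least 0.5 of its spots were so in each of the 4 channels; 18904 genes were. Names came from the files or, by accession, from RefSeq (assembly GRCm38.p6). Tests used limma 3.58.1 (R 4.3.3; lmFit, eBayes, dye orientation as sign, no intercept) on probes well above background on both arrays in at least 1 treatment. With 1 residual degree of freedom, against a median of 51.9 for the prior, the variance rests mostly on the prior. Having only 2 arrays limits the precision. The methods call the pools independent. The p-values and intervals thus reflect a spread shared over all tested probes more than a gene's own spread between these 2 comparisons. No spot was saturated. Other background corrections, normalizations, filters and limits were tried as alternatives. The limma step was tested on simulated ratios with 200 of 25975 probes changed. It called 73% of the probes changed by 1 on the log2 scale and 100% of those changed by 2, beside 20 unchanged probes. The simulated ratios were independent between probes and held no shared trend such as that with gene length.

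Every member was named. Of the lists of collagens, other leucine-rich proteins, sugar chain enzymes, proteases, proteoglycans and growth factors, genes called by limma or past the fold filter were named, otherwise the 2 with the largest mean change; cell type markers are given as lists; Gli1, Ptch1 and Hhip check the treatment; the 5 genes nearest to Fmod were taken by distance, 1 of which is not reported here. Members and lists were chosen with earlier results of these data known.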

Additional observations from a re-analysis of the deposited data

Results flagged for a closer look

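The pools of the 2 sexes, each with 1 array, moved in opposite directions by at least 1.5-fold in their difference for 3 members. The log2 ratio of female pools minus that of male pools was 0.67 for Lum, 0.92 for Ogn and 0.89 for Aspn. The median of the 9 measured members differed in the same direction by 0.63, and that of the collagens they bind by 1.01. None of these differences was tested, since each sex had 1 array, and dye orientation and sex cannot be told apart.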

How the results depend on the processing

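Fmod was lower in every alternative run, with a mean log2 ratio from -1.34 to -1.07 and limma adjusted p-values from 1.70e-06 to 1.00. As Fmod was picked on these ratios, these p-values only describe how its call depends on the processing and are no test. Its limma call, and with it the count of members called, went to 0 with the series table values (-1.27, adjusted p 0.540) and when the 4 channels entered singly with no replicate block, so that an array no longer paired its channels (-1.32, adjusted p 1.00). With these 4 channels limma called 2 probes lower and 1 higher, and the series values gave 0 and 0 (unadjusted p under 0.05: 818 and 1051). With normexp and an offset of 50 it called 42 lower and 12 higher probes, with an offset of 10 123 and 52, and with no filter on dim probes 261 and 216. Removing the length trend gave 309 and 259. Members lower by the fold filter numbered 0 at a 2-fold limit and 0 with a control intensity over 200, and 1 in the other alternatives with both arrays, including a common 75th percentile scale, which was chosen after seeing the data. Members higher by the fold filter numbered 0 in all of them. With 1 array no limma test was possible. Single arrays gave 1 to 2 members lower and 0 to 1 higher by the fold filter, and medians of the members from -0.23 to 0.40. With both arrays the median ranged from -0.05 to 0.00. Ogn, near 0 in every setting, turned from -0.03 to 0.00082 with the length trend removed. The 7 other tested members kept their sign on the mean and were called in no alternative. Each member has 1 probe, so other rules for choosing a probe could not change it. The causes were not tested. Signal limits Prelp on replicate 2 and Omd on both arrays.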
